A study of Mus musculus with 58 samples.

Results

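The expression of 35 genes of autophagy and the lysosome was described in 3 tissues of mice with the C26 colon carcinoma, a model of cancer cachexia. A gene was measured where at least 1 probe set of the array carried its symbol and no other symbol, and probe sets of the same symbol were averaged. By this rule 32 of the 35 genes were measured, out of 18820 genes on the array. Becn1 and Ctsb lay on probe sets shared with other symbols, and Optn had no probe set of its symbol in the annotation used here, so these 3 genes have no value. Of the 32 genes, 28 were read by 1 probe set and 4 (Bnip3, Bnip3l, Map1lc3b and Rb1cc1) by 2.

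Autophagy wraps part of the cytoplasm in a double membrane, the autophagosome, which fuses with the lysosome, where cathepsins and other hydrolases break down its content. The ULK1 complex starts the process, a phosphatidylinositol 3-kinase complex marks the membrane, and a conjugation machinery attaches LC3 and GABARAP proteins to the growing membrane, where they bind receptors that carry cargo such as ubiquitinated proteins or mitochondria. In skeletal muscle the pathway runs beside the ubiquitin-proteasome system in fasting, denervation and cachexia, and transcription factors of the FoxO and TFEB families are known to drive many of its genes.

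The tissues were m. extensor digitorum longus (EDL, a fast muscle), m. soleus (SOL, a slow muscle) and heart (HRT) of young male CD2F1 mice (a BALB/c x DBA/2 cross), which all received an injection under the skin of the flank and were killed on day 19. The 4 groups were T + WBV (C26 cells and whole-body vibration), T (C26 cells, no vibration), C + WBV (sham injection of salt solution and vibration) and C (sham injection, no vibration). Vibrated mice were placed on a vibrating plate that ran at 45 Hz with an acceleration of 1.0 g for 15 min of each day, beginning the day after the injection. EDL and SOL came from 5 T + WBV mice and 6 mice of each other group, hearts from 3 mice of each group, 58 arrays of 23 mice in all. Within a group, the same replicate number in EDL and SOL names the same mouse. Hearts were numbered separately, so a replicate number in HRT mostly names another mouse than in the muscles.

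Values are log2 intensities, so a difference of 1 is a doubling of signal, and all fold changes below are log2 differences with their standard error (SE). The array medians lay between 4.52 and 4.60. Muscle markers fitted the tissue labels, but fibre markers varied within a tissue. The mean of 7 slow-muscle markers ran from 5.71 to 8.93 in single EDL arrays and from 11.89 to 12.31 in SOL. In SOL the mean of 8 fast-muscle markers ran from 9.17 to 10.79 in T + WBV and 8.92 to 10.09 in T mice. It ran from 9.89 to 11.07 in C + WBV and 9.59 to 10.00 in C mice. The part of this spread in the differences below was not tested. At day 19 the body mass was 75.9 to 100.9% of the starting mass in T + WBV mice, 77.5 to 91.0% in T mice, 107.0 to 111.4% in C + WBV mice and 107.9 to 114.5% in C mice. The array reads RNA of the whole tissue, so fewer cells of a type and less RNA per cell cannot be told apart.

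The tumour comparison asked which of these genes differed between T and C mice. In EDL 16 of the 32 genes rose and 1 (Ulk2) fell in T against C, at an adjusted p under 0.01 in limma with Benjamini-Hochberg adjustment over all 18820 genes. Of all genes tested, 22.4% passed in either direction, 10.7% upward and 11.6% downward. In SOL 12 genes rose and 2 (Ulk2 and Ctsk) fell, where 13.7% of all genes passed, 5.06% upward and 8.66% downward. In HRT 6 genes rose and 0 fell, with 5.74% of all genes past the threshold, 2.70% upward and 3.04% downward. The median log2 difference of the 32 genes was 0.36 in EDL, 0.14 in SOL and 0.10 in HRT, whereas over all genes it was -0.03, -0.01 and 0.00. Atg13, Gabarap, Map1lc3b, Lamp2 and Ctsl rose in all 3 tissues, 12 genes passed in none, and no gene passed in opposite directions. Leaving out any 1 heart of T or C left 1 to 3 genes past the threshold in HRT, with 1 left without T replicate 2 and 3 without T replicate 3. In HRT these 2 numbers name other mice than T replicates 2 and 3 of the muscles. Single values are given below for the members with the largest differences in each role, and for Ulk2, Rb1cc1, Gabarap, Map1lc3a, Ctsd, Ctsz and Ctss, which were chosen after their values were seen.

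**Figure D1:**
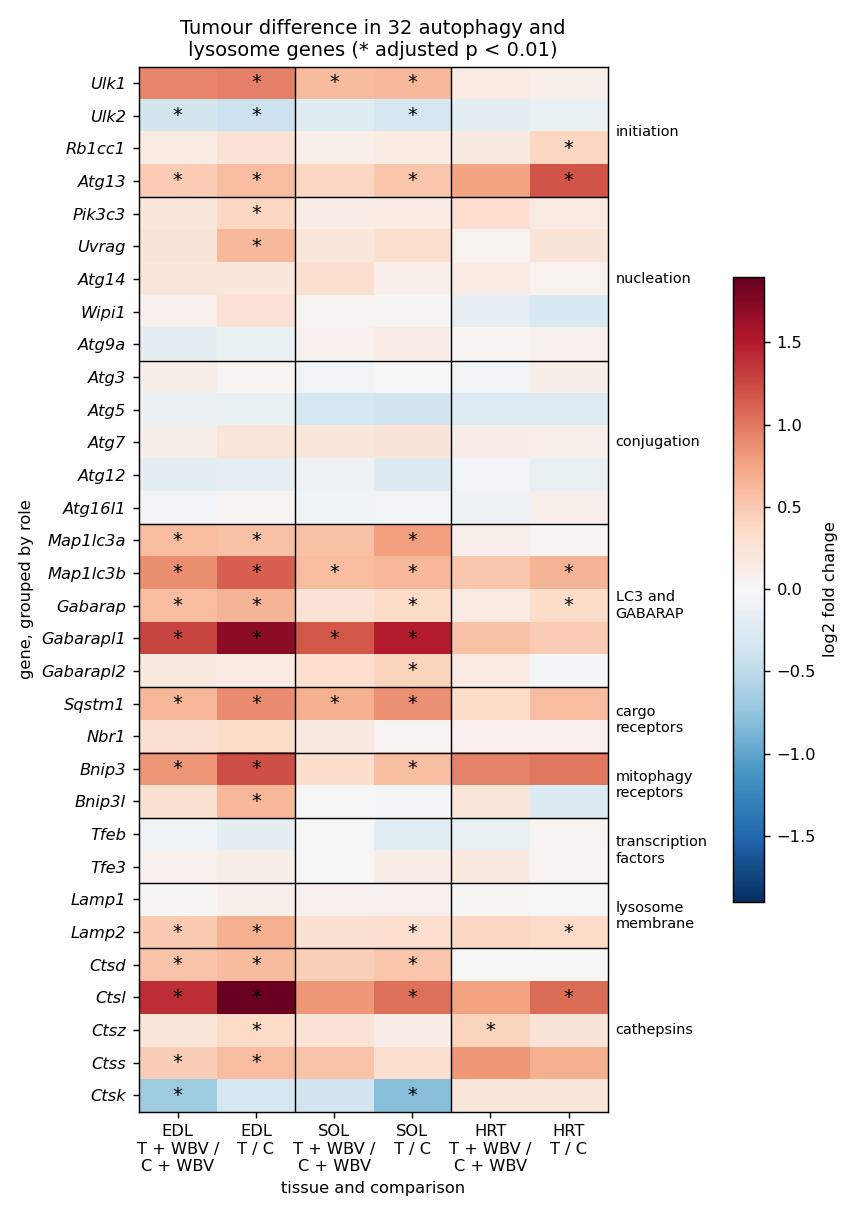
Log2 fold change (colour) of the 32 measured genes (rows, grouped by role) in T + WBV against C + WBV and in T against C for EDL, SOL and HRT (columns). Asterisks mark an adjusted p under 0.01, which in T against C was reached by 17 genes in EDL, 14 in SOL and 6 in HRT, and the conjugation rows carry none.

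Among the genes of initiation, Atg13, a scaffold of the ULK1 complex, rose in the 3 tissues. In HRT, Atg13 stood at 9.62, 9.68 and 9.78 in the T hearts, against 8.61, 8.33 and 8.57 in the C hearts. In SOL its lowest, median and highest values were 9.05, 9.52 and 9.73 in T mice and 8.89, 8.92 and 9.01 in C mice. In EDL they were 8.35, 9.02 and 9.28 in T mice, against 8.22, 8.30 and 8.45 in C mice. Every T array of HRT and SOL lay above every C array, and in EDL only T replicate 3, at 8.35, lay within the range of C. The difference was 1.19 ± 0.19 in HRT (adjusted p = 0.00134), 0.53 ± 0.10 in SOL (adjusted p = 0.00035) and 0.58 ± 0.12 in EDL (adjusted p = 0.000489), and it passed in every fit that left out 1 array of T or C.

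Ulk1, the kinase that gives the complex its name, rose in both muscles. Its lowest, median and highest values in EDL were 8.82, 9.24 and 10.11 in T mice, against 8.31, 8.36 and 8.64 in C mice. In SOL they were 8.53, 8.78 and 9.00 in T mice and 7.85, 8.26 and 8.36 in C mice. The groups did not overlap in either muscle, and the T mice were spread more widely than the C mice in EDL. Ulk1 rose by 0.95 ± 0.25 in EDL (adjusted p = 0.00455) and by 0.61 ± 0.13 in SOL (adjusted p = 0.000908), while in HRT the difference was 0.09 ± 0.14 (adjusted p = 0.742), with a 95% confidence interval of -0.20 to 0.39. In EDL the call was lost without T replicate 1, T replicate 4 or C replicate 6, with adjusted p up to 0.0166. The SOL call passed in every fit that left out 1 array and was lost with all arrays in 1 fit (adjusted p = 0.0113).

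The paralog Ulk2 went the other way in muscle. In EDL it ran from 8.22 to 8.61 with a median of 8.41 in T mice, below all C mice, which ran from 8.75 to 8.92 with a median of 8.80. Ulk2 fell by 0.40 (SE 0.07) on the log2 scale in EDL (adjusted p = 0.000114) and by 0.31 (SE 0.08) in SOL (adjusted p = 0.00834). The SOL call was lost in 11 of the 12 fits that left out 1 array, all but the one without T replicate 3, with adjusted p up to 0.0241. In HRT it differed by -0.13 ± 0.08 (adjusted p = 0.313).

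Rb1cc1 encodes FIP200, a further scaffold of the complex. It stood at 6.51, 6.48 and 6.45 in T hearts, against 6.11, 6.03 and 6.08 in C hearts, a rise of 0.41 ± 0.09 (adjusted p = 0.00916) that was lost without any 1 of these 6 hearts (adjusted p up to 0.0345). Rb1cc1 also lost this call in 5 of 9 other settings. Its 2 probe sets did not move alike. The brighter one differed by 0.26 in HRT and 0.39 in EDL, and the dimmer one, with a mean level of 4.53 in HRT and 4.76 in EDL, by 0.56 in HRT and 0.16 in EDL. With limma on single probe sets neither passed in HRT (adjusted p = 0.0956 for the brighter, 0.0175 for the dimmer). The brighter one passed in EDL (adjusted p = 0.00768). The HRT call of Rb1cc1 thus exists only for the average.

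Genes of nucleation, the step that marks the membrane for growth, passed in EDL only among the T against C comparisons. Uvrag, a regulatory subunit of the kinase complex, had a lowest, median and highest value of 6.91, 7.47 and 7.83 in T mice and 6.71, 6.82 and 7.01 in C mice. Pik3c3, its catalytic subunit VPS34, had 7.13, 7.45 and 7.66 in T mice, against 6.94, 7.06 and 7.15 in C mice. For each gene the lowest T array lay within the range of C and most T arrays lay above it. Uvrag rose by 0.62 ± 0.12 (adjusted p = 0.000234) and Pik3c3 by 0.39 ± 0.09 (adjusted p = 0.00168). In SOL and HRT the differences of Uvrag were 0.30 (adjusted p = 0.0155) and 0.25 (adjusted p = 0.192), and those of Pik3c3 were 0.15 in each. Atg14, Wipi1 and Atg9a passed in no tissue, with differences between -0.29 and 0.27.

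None of the 5 listed genes of the conjugation machinery passed in the fits per tissue. Other conjugation genes, some of which fell in both muscles, are counted further below. Atg3, Atg5, Atg7, Atg12 and Atg16l1, which activate and attach LC3 and GABARAP, had 0 of 5 genes past the threshold in each tissue with limma, where 22.4% of all genes passed in EDL, 13.7% in SOL and 5.74% in HRT. They had log2 differences between -0.36 (Atg5 in SOL, adjusted p = 0.0307) and 0.25 (Atg7 in SOL, adjusted p = 0.0432). At an unadjusted p under 0.05 the counts were 1 gene in EDL, 3 in SOL and 0 in HRT. The share of all genes at this unadjusted cut-off was not counted, here or below. With all 58 arrays in 1 fit, Atg5 passed in SOL (adjusted p = 0.00376).

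Of the LC3 and GABARAP genes themselves, 4 of 5 rose in EDL, 5 of 5 in SOL and 2 of 5 in HRT. Of all genes, 10.7%, 5.06% and 2.70% rose in these tissues. Gabarapl1, a GABARAP paralog, had the largest rise among these 5 genes in both muscles. In EDL its lowest, median and highest values were 8.64, 9.64 and 10.38 in T mice, against 7.53, 7.94 and 8.18 in C mice. The SOL values were 9.39, 9.96 and 10.02 in T mice, against 8.15, 8.35 and 8.40 in C mice. No T muscle reached down to the highest C muscle. Gabarapl1 rose by 1.70 ± 0.30 in EDL, a 3.25-fold change (adjusted p = 8.83e-05), and by 1.49 ± 0.20 in SOL, 2.81-fold (adjusted p = 1.31e-05). In HRT it stood at 9.31, 9.31 and 9.30 in T hearts and at 9.04, 8.67 and 8.76 in C hearts, also without overlap, but the difference of 0.49 ± 0.20 did not pass (adjusted p = 0.141) except with only the groups compared (adjusted p = 0.00348).

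Map1lc3b encodes LC3B, the protein most often used to count autophagosomes. Its lowest, median and highest values in EDL were 10.50, 11.07 and 11.28 in T mice, against 9.73, 9.89 and 9.98 in C mice. In SOL they were 10.00, 10.38 and 10.73 in T mice and 9.63, 9.77 and 9.86 in C mice. T hearts stood at 10.45, 10.37 and 10.15, and C hearts at 9.66, 9.67 and 9.68. T and C did not overlap in any tissue. Map1lc3b rose by 1.13 ± 0.15 in EDL (2.19-fold, adjusted p = 5.75e-06), by 0.64 ± 0.12 in SOL (adjusted p = 0.000327) and by 0.65 ± 0.13 in HRT (adjusted p = 0.00395). The HRT call was lost without any 1 heart of T or C except T replicate 3, with adjusted p up to 0.0212. It was also lost with all arrays in 1 fit and with 1 prior variance.

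Gabarap, the founding member of its family, rose by 0.65 ± 0.11 in EDL (adjusted p = 7.27e-05), 0.36 ± 0.07 in SOL (adjusted p = 0.000942) and 0.34 ± 0.07 in HRT (adjusted p = 0.0047), and its T and C ranges did not overlap in any tissue. In HRT it stood at 11.34, 11.31 and 11.36 in T hearts, against 11.02, 11.02 and 10.96 in C hearts, and this call was lost without any 1 of the 6 hearts (adjusted p up to 0.0249). The same HRT call was lost with all arrays in 1 fit and with 1 prior variance. Map1lc3a, the LC3A gene, rose by 0.56 ± 0.14 in EDL (adjusted p = 0.00338) and 0.78 ± 0.20 in SOL (adjusted p = 0.00495), and stood at 9.27, 9.23 and 9.28 in T hearts and at 9.19, 9.23 and 9.23 in C hearts. Its EDL call was lost without T replicate 2, T replicate 6 or C replicate 1 (adjusted p up to 0.0123), and its SOL call without T replicates 1, 2, 5 or 6 or C replicates 2 or 3 (adjusted p up to 0.0171). Gabarapl2 rose by 0.43 ± 0.10 in SOL (adjusted p = 0.00341), a call lost without T replicate 1, T replicate 2 or C replicate 2 (adjusted p up to 0.0114). It differed by 0.15 ± 0.07 in EDL (adjusted p = 0.126) and -0.04 ± 0.07 in HRT (adjusted p = 0.796).

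**Figure D2:**
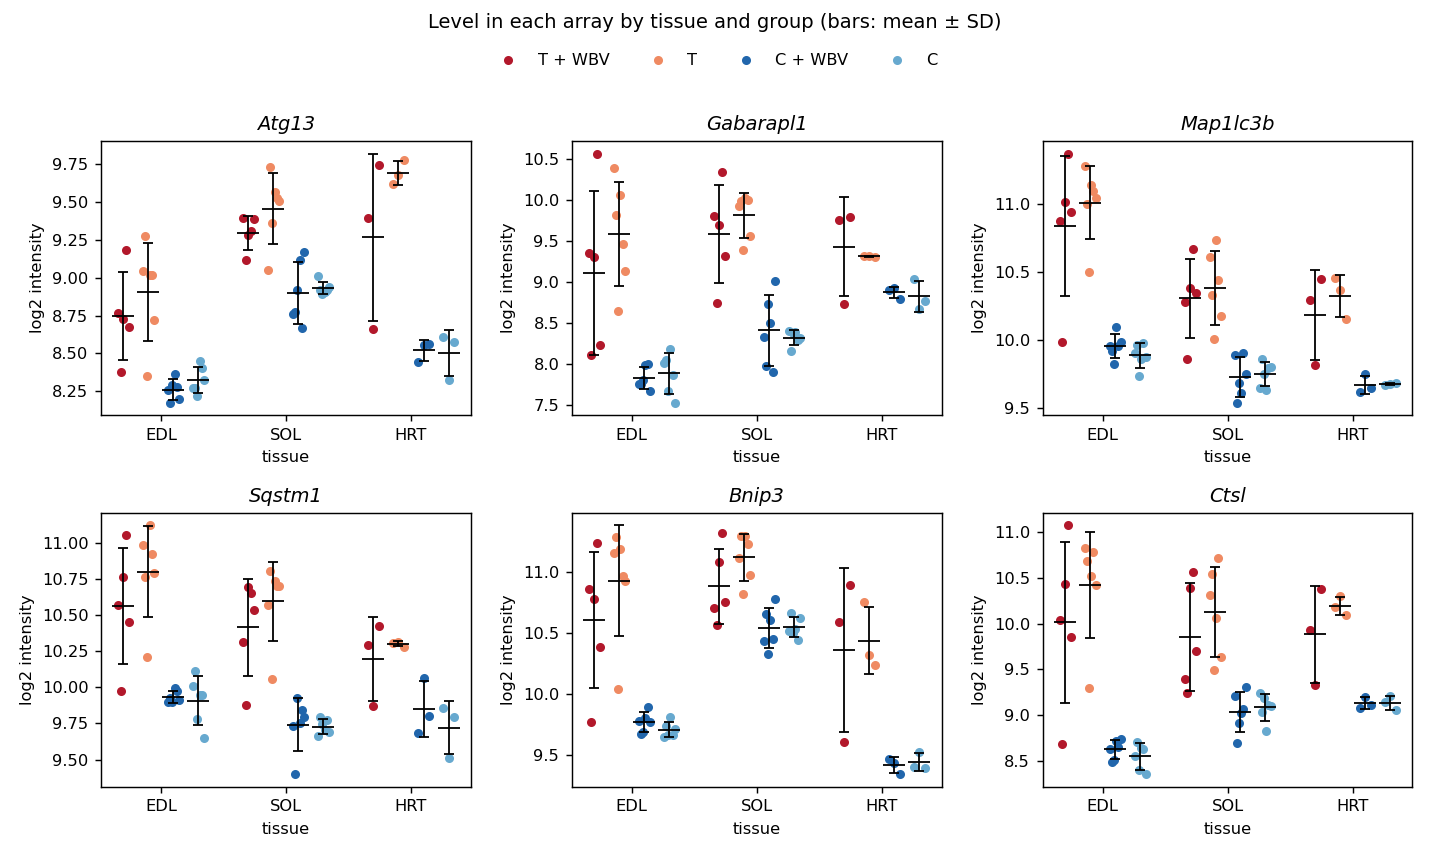
Log2 intensity (vertical axis) of 6 genes in each array of T + WBV, T, C + WBV and C mice (left to right within each tissue), with the mean and standard deviation in black. Gabarapl1, Map1lc3b, Sqstm1, Bnip3 and Ctsl lay higher in every T array than in every C array of each tissue, and 1 low T + WBV point, replicate 2, recurs in EDL, SOL and HRT.

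Sqstm1, the gene of the cargo receptor p62, rose in both muscles. In EDL the lowest, median and highest values were 10.21, 10.86 and 11.12 in T mice and 9.65, 9.95 and 10.12 in C mice. SOL gave 10.06, 10.70 and 10.80 in T mice, against 9.66, 9.72 and 9.80 in C mice. T hearts stood at 10.31, 10.32 and 10.28, and C hearts at 9.86, 9.51 and 9.79. The ranges were separate in each tissue. The rise was 0.89 ± 0.14 in EDL (adjusted p = 2.68e-05) and 0.87 ± 0.12 in SOL (adjusted p = 3.07e-05), whereas the 0.58 ± 0.13 of HRT fell just short at an adjusted p of 0.010. In HRT Sqstm1 passed with only the groups compared (adjusted p = 0.000811), with only genes above the median level (adjusted p = 0.00847) and with 1 probe set per gene (adjusted p = 0.00929). Nbr1, a related receptor, differed by 0.35 ± 0.11 in EDL (adjusted p = 0.0149), 0.05 in SOL and 0.09 in HRT and passed in none.

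Bnip3 and Bnip3l (NIX) encode receptors in the outer mitochondrial membrane that bind LC3 and GABARAP proteins in mitophagy. Bnip3 had lowest, median and highest values in EDL of 10.04, 11.06 and 11.28 in T mice, against 9.65, 9.69 and 9.81 in C mice. In SOL they were 10.82, 11.17 and 11.29 in T mice, against 10.44, 10.52 and 10.66 in C mice. It stood at 10.75, 10.32 and 10.24 in T hearts and at 9.40, 9.53 and 9.39 in C hearts. In no tissue did T and C overlap. Bnip3 rose by 1.22 ± 0.18 in EDL (adjusted p = 1.78e-05) and by 0.57 ± 0.11 in SOL (adjusted p = 0.000444), and its difference of 1.00 ± 0.23 in HRT did not pass (adjusted p = 0.0114). Bnip3 did pass in HRT with all arrays in 1 fit (adjusted p = 0.00172), with only the groups compared (adjusted p = 0.000176) and with its brighter probe set (adjusted p = 0.00616).

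Bnip3l was the member whose difference varied most clearly between tissues. In EDL its lowest, median and highest values were 10.06, 10.62 and 11.05 in T mice, against 9.96, 9.98 and 10.03 in C mice. For SOL they were 9.48, 9.66 and 9.98 in T mice, against 9.60, 9.71 and 9.96 in C mice. T hearts stood at 9.81, 9.65 and 9.63, just below the C hearts at 9.97, 9.82 and 10.11. It rose by 0.64 ± 0.12 in EDL (adjusted p = 0.000183) and differed by -0.04 ± 0.09 in SOL (adjusted p = 0.812) and by -0.27 ± 0.09 in HRT (adjusted p = 0.0586). A fit over all 58 arrays, with the mouse as a random block, tested these differences against each other. Bnip3l differed by -0.68 ± 0.14 in SOL relative to EDL (adjusted p = 0.00105) and by -0.90 ± 0.17 in HRT relative to EDL (adjusted p = 0.000301), and both calls held in every fit that left out 1 array.

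In the comparison of SOL with EDL, 1 of the 32 genes, Bnip3l, passed in this fit, where 2.02% of all genes did. Both muscles were taken from each mouse, and in a fit to the difference within each mouse Ctsl (-0.84, adjusted p = 0.00654) and Bnip3 (-0.65, adjusted p = 0.0095) passed as well. In the comparison of HRT with EDL, Bnip3l was joined by Wipi1, where 3.50% of all genes passed. Without EDL T replicate 3 the counts were 4 and 3. Wipi1, which binds the lipid made by the VPS34 complex, had a median of 8.52 in T mice and 8.36 in C mice in EDL, with overlapping ranges. It stood at 8.30, 8.17 and 8.15 in T hearts, all below the C hearts at 8.51, 8.46 and 8.52. The tumour difference of Wipi1 was -0.29 in HRT and 0.27 in EDL, neither past the threshold by itself (in HRT it passed with only genes above the median level, adjusted p = 0.00896), and -0.55 ± 0.14 in HRT relative to EDL (adjusted p = 0.00849). This call was lost in 12 of the 18 fits that left out 1 array (EDL T replicates 1, 2 and 4, EDL C replicates 2, 3 and 5, and every one of the 6 hearts), with adjusted p up to 0.0344. None of the 32 genes passed in HRT relative to SOL (1.68% of all genes, 7 members at an unadjusted p under 0.05), where Ctsk came closest at 1.04 (adjusted p = 0.0242).

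**Figure D3:**
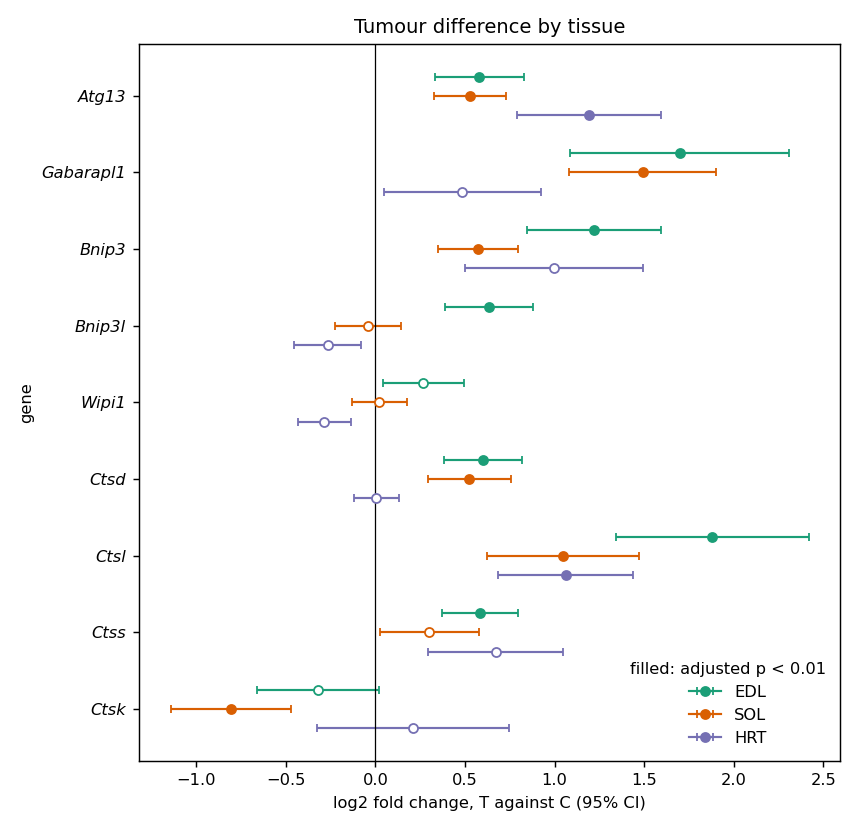
Log2 fold change of T against C (horizontal axis) with its 95% confidence interval for 9 genes in EDL, SOL and HRT, filled where the adjusted p was under 0.01. Bnip3l and Wipi1 lie right of 0 in EDL and left of 0 in HRT, at 0.64 and 0.27 against -0.27 and -0.29, and Ctsd is near 0 in HRT alone.

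The transcription factors Tfeb and Tfe3, which are known to drive lysosomal genes, passed in no tissue. Tfeb differed by -0.18 in EDL, -0.21 in SOL (adjusted p = 0.062) and 0.05 in HRT, and Tfe3 by 0.11, 0.12 and 0.03.

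Of the 2 abundant glycoproteins of the lysosome membrane, Lamp2 rose in every tissue and Lamp1 in none. Lamp2 had lowest, median and highest values in EDL of 9.73, 10.10 and 10.21 in T mice, against 9.32, 9.38 and 9.43 in C mice. The values in SOL were 9.91, 10.05 and 10.14 in T mice and 9.62, 9.70 and 9.93 in C mice. T hearts stood at 10.27, 10.37 and 10.38, against 10.04, 9.95 and 9.93 in C hearts. The groups were separate in EDL and HRT and overlapped in SOL, where C replicate 2 reached 9.93. Lamp2 rose by 0.67 ± 0.08 in EDL, with the smallest adjusted p of any member (2.42e-06), by 0.32 ± 0.09 in SOL (adjusted p = 0.00935) and by 0.37 ± 0.08 in HRT (adjusted p = 0.00808). The SOL call was lost without any 1 array except T replicate 3 or C replicate 2 (adjusted p up to 0.0240), and the HRT call without any 1 heart (adjusted p up to 0.0367). Of the other settings tried, 5 of 10 lost the SOL call and 3 of 9 lost the HRT call. The SOL call was lost with the intensity-based moderated test, the kind of test named in the study's methods. Lamp1 differed by 0.09 in EDL, 0.08 in SOL and 0.00 in HRT, with 95% confidence intervals within -0.13 and 0.23.

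The cathepsins did not move as a block. Ctsl, the cysteine protease cathepsin L, had the largest difference of any of the 32 genes in EDL. Its lowest, median and highest values there were 9.29, 10.61 and 10.83 in T mice, against 8.35, 8.59 and 8.71 in C mice. In SOL they were 9.49, 10.19 and 10.72 in T mice, against 8.83, 9.10 and 9.24 in C mice. T hearts stood at 10.18, 10.30 and 10.10 and C hearts at 9.14, 9.21 and 9.06. T and C were separate throughout. Ctsl rose by 1.88 ± 0.26 in EDL (3.68-fold, adjusted p = 9.89e-06), 1.04 ± 0.21 in SOL (2.06-fold, adjusted p = 0.000626) and 1.06 ± 0.18 in HRT (2.09-fold, adjusted p = 0.00172), the last lost without T replicate 2 (adjusted p = 0.0116). The HRT call of Ctsl was also lost with all arrays in 1 fit.

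Ctsd, the aspartic protease cathepsin D, rose in both muscles. In EDL its lowest, median and highest values were 11.01, 11.48 and 11.62 in T mice, against 10.75, 10.82 and 10.85 in C mice, and in SOL 10.81, 11.00 and 11.19 in T mice, against 10.14, 10.52 and 10.58 in C mice. T hearts stood at 11.31, 11.33 and 11.31, within the 11.34, 11.30 and 11.28 of C hearts. Ctsd rose by 0.60 ± 0.11 in EDL (adjusted p = 9.98e-05) and 0.52 ± 0.11 in SOL (adjusted p = 0.00124), and its HRT difference of 0.00 ± 0.06 had a 95% confidence interval of -0.12 to 0.13. The tumour difference of Ctsd in HRT relative to EDL was -0.62 (adjusted p = 0.0114), short of the threshold. Ctsz, a carboxypeptidase, rose by 0.36 ± 0.09 in EDL (adjusted p = 0.00267) and differed by 0.13 in SOL (adjusted p = 0.555) and 0.25 in HRT (adjusted p = 0.028).

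Ctss and Ctsk are given beside markers of the cells they are best known from, antigen-presenting cells and matrix-degrading cells of the connective tissue and bone. Ctss ran from 5.74 to 6.34 (median 5.97) in EDL of T mice, against 5.11 to 5.54 (median 5.43) in C mice, without overlap. It rose by 0.58 ± 0.10 in EDL (adjusted p = 9.51e-05) and differed by 0.30 in SOL (adjusted p = 0.12) and 0.67 in HRT (adjusted p = 0.021). Of 12 macrophage markers measured, 5 rose in EDL, 0 in SOL and 6 in HRT, and 0 fell. Their mean level in single arrays was 5.43 to 6.06 in T and 5.01 to 5.44 in C in EDL, 5.59 to 6.34 in T and 5.57 to 6.02 in C in SOL, and 7.42 to 7.57 in T and 6.56 to 7.19 in C in HRT. Of 11 neutrophil markers measured, 4 rose in EDL, 5 in SOL and 5 in HRT, and 0 fell. Of all genes, 10.7% rose in EDL, 5.06% in SOL and 2.70% in HRT. Their mean level was 3.52 to 4.26 in T and 3.26 to 3.54 in C in EDL, 3.78 to 4.36 in T and 3.20 to 3.49 in C in SOL, and 4.27 to 4.79 in T and 3.32 to 3.70 in C in HRT. In the muscles and in C hearts these means lay below the array medians of 4.52 to 4.60, so the neutrophil signal was low. The part of these cells in the differences of Ctss and of the other members was not tested.

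Ctsk, cathepsin K, fell in SOL. It ran from 4.79 to 5.43 (median 5.40) in T mice, below the C mice at 5.73 to 6.37 (median 6.13), and fell by 0.81 (SE 0.16) on the log2 scale (adjusted p = 0.000823), while it differed by -0.32 in EDL (adjusted p = 0.16) and 0.21 in HRT (adjusted p = 0.67). Of 10 fibroblast markers, 7 fell in EDL and 8 in SOL and 0 rose there, whereas in HRT 3 rose and 2 fell. Of all genes, 11.6% fell in EDL and 8.66% in SOL, while in HRT 2.70% rose and 3.04% fell. Their mean level in single arrays was 5.89 to 7.62 in T and 7.63 to 8.17 in C in EDL, 6.10 to 7.61 in T and 8.07 to 8.62 in C in SOL, and 8.23 to 8.50 in T and 8.32 to 8.45 in C in HRT. Their part in the Ctsk difference was not tested.

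Since TFEB and TFE3 bind the E-box core CACGTG, the 250 bases before each RefSeq gene start (build GRCm38.p6) were searched for it. The core is palindromic, so 1 strand covers both. Of the 32 genes, 26 were matched by symbol, with 30 windows, and 7 windows (23.3%) held it, compared with 6.02% of all 32851 windows of that length. They belong to Atg3, Atg5, Atg7, Bnip3, Lamp1, Ctsd and Ctsl, of which 3 (Bnip3, Ctsd and Ctsl) rose in both muscles and 4 passed in no tissue. The longer CLEAR palindrome, which contains the core, and the FoxO site TGTTTAC (both strands) were in 0 of the 30 windows and in 0.240% and 3.17% of all windows. A match is a description of letters and not a bound site. A pair that rose and a pair that did not are shown, 5′ to 3′ on the gene's strand, with CACGTG in capitals. Ctsd lies on the minus strand (chr7:142387828-142388077), Bnip3 on the minus strand (chr7:138909507-138909756), Lamp1 on the plus strand (chr8:13158911-13159160) and Atg3 on the plus strand (chr16:45158579-45158828).
Ctsd: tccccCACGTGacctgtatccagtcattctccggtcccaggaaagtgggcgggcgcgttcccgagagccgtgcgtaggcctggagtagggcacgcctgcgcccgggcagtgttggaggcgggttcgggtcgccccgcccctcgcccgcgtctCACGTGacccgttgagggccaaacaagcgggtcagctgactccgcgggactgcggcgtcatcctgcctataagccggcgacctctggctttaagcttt
Bnip3: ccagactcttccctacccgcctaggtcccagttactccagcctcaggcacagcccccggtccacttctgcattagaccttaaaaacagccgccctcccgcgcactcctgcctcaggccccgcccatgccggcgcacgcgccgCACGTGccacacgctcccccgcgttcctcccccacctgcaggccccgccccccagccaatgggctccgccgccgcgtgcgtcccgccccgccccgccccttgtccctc
Lamp1: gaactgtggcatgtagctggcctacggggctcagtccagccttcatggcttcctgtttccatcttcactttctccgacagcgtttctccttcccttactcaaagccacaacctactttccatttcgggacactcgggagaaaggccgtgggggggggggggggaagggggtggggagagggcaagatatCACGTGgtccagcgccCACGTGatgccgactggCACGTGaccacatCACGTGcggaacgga
Atg3: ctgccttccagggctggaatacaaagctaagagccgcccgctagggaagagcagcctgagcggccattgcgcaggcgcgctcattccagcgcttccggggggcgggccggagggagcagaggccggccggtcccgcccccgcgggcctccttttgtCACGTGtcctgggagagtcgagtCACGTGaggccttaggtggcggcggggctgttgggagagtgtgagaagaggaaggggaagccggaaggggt
Lamp1 holds the core 4 times within the last 61 bases before its start. The relation of the core to the differences in level was not tested.

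None of the 32 genes passed the threshold in a comparison of vibrated with unvibrated mice. In T + WBV against T and in C + WBV against C, 0 members and 0 of the 18820 genes (0.00%) passed in each tissue with limma, and the same held for the interaction of tumour and vibration. The count of members stayed at 0 in every alternative fit, the intensity-based moderated test included. At an unadjusted p under 0.05, T + WBV against T had 2 members in EDL, 1 in SOL and 4 in HRT, C + WBV against C had 1, 0 and 0, and the interaction had 1, 0 and 1. These unadjusted counts stand without the share of all genes and do not show a difference particular to the members. The 32 genes had a median difference of -0.08 in EDL, -0.03 in SOL and -0.06 in HRT in T + WBV against T, compared with 0.00, 0.01 and 0.00 over all genes. The member with the smallest p was Bnip3l in HRT and EDL and Bnip3 in SOL. Bnip3l stood at 10.16, 10.14 and 9.89 in T + WBV hearts, all above the T hearts at 9.81, 9.65 and 9.63, a difference of 0.37 ± 0.09 (adjusted p = 0.345). In EDL it stood at 10.13, 9.91, 10.53, 10.62 and 10.33 in T + WBV mice, which overlapped the 10.06 to 11.05 of T mice, with a difference of -0.32 ± 0.12 (adjusted p = 0.867). Bnip3 in SOL differed by -0.24 ± 0.11 (adjusted p = 0.928).

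In C + WBV against C, the smallest p belonged to Ctss in EDL (0.22 ± 0.10), Ctsk in SOL (-0.32 ± 0.16) and Map1lc3a in HRT (-0.11 ± 0.07), each with an adjusted p of 1.00. For the interaction it belonged to Uvrag in EDL (-0.37 ± 0.17, adjusted p = 0.982), Ctsk in SOL (0.44 ± 0.24, adjusted p = 0.986) and Bnip3l in HRT (0.50 ± 0.12, adjusted p = 0.743). The width of the intervals bears on these counts. For Ctsl in EDL, T + WBV against T was -0.41 with a 95% confidence interval of -0.97 to 0.16, and for Gabarapl1 it was -0.47 with an interval of -1.11 to 0.17.

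Among vibrated mice fewer members passed for the tumour difference, while the interaction, which tests whether the difference itself changed, passed for 0 genes. In T + WBV against C + WBV, which shares no arrays with T against C, 11 genes rose and 2 (Ulk2 and Ctsk) fell in EDL (11.9% of all genes passed, 5.27% upward and 6.60% downward), 4 rose in SOL (3.61%, 1.94% upward and 1.66% downward) and 1, Ctsz, rose in HRT (1.49%, 1.01% upward and 0.478% downward). Of the genes past the threshold in EDL, 12 were the same and in the same direction in both comparisons, out of 17 in T against C and 13 in T + WBV against C + WBV. In SOL 4 were shared (Ulk1, Map1lc3b, Gabarapl1 and Sqstm1), out of 14 and 4, and in HRT 0, out of 6 and 1. The overlap over all genes was not counted, and both comparisons came from the same fit of each tissue. Leaving out 1 array of T + WBV or C + WBV ended the Atg13 and Map1lc3a calls in EDL in 9 of 11 fits each. The Ulk1 and Map1lc3b calls in SOL were lost in 6 of 11 each. T + WBV against C, with the same C arrays as T against C, had 9 up and 1 down in EDL (11.1% of all genes, 5.37% upward and 5.69% downward), 3 up in SOL (4.67%, 2.01% upward and 2.66% downward) and 0 in HRT (1.47%, with 11 members at an unadjusted p under 0.05).

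Single values show the spread behind these counts. Ctsl in EDL stood at 10.04, 8.68, 10.44, 11.08 and 9.86 in T + WBV mice, against a lowest, median and highest value of 8.49, 8.64 and 8.74 in C + WBV mice. Gabarapl1 in EDL stood at 9.35, 8.11, 9.30, 10.56 and 8.23 in T + WBV mice, against 7.67, 7.78 and 8.00 in C + WBV mice. Map1lc3b in EDL stood at 10.88, 9.98, 11.02, 11.37 and 10.94 in T + WBV mice and at 9.82, 9.95 and 10.09 in C + WBV mice. T + WBV replicate 2, the second value of each list, was the lowest of its group for the 3 genes and the only one inside the C + WBV range for Ctsl and Map1lc3b. This mouse had the highest body mass of the tumour-bearing mice, 100.9% of its start. Ctsl rose by 1.40 ± 0.27 (adjusted p = 0.000909), Gabarapl1 by 1.28 ± 0.31 (adjusted p = 0.0044) and Map1lc3b by 0.89 ± 0.16 (adjusted p = 0.000368). The Gabarapl1 call was lost without T + WBV replicates 1, 3 or 4 or C + WBV replicate 6 (adjusted p up to 0.0189).

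Hearts showed the same mouse low. Atg13 stood at 9.39, 8.66 and 9.75 in T + WBV hearts, against 8.44, 8.56 and 8.56 in C + WBV hearts, and Bnip3 at 10.59, 9.61 and 10.89 in T + WBV hearts, against 9.47, 9.43 and 9.34 in C + WBV hearts. The second heart of T + WBV is of the mouse named above. Without it 10 genes passed in HRT in T + WBV against C + WBV and 9 when C was the control. Atg13 then differed by 1.05 ± 0.10 and Bnip3 by 1.33 ± 0.12 from C + WBV hearts. Without its EDL the counts were 14 against C + WBV and 15 against C, and without its SOL they were 10 and 8. The count over all genes moved as well in the fits that left out 1 array. Against C + WBV it ran from 53 to 1625 in HRT, 1169 to 3318 in EDL and 200 to 1454 in SOL. Against C it ran from 34 to 1661 in HRT, 1026 to 3191 in EDL and 330 to 1643 in SOL. The counts against C + WBV were lowest without T + WBV replicates 1, 3 or 4 in EDL (8 genes each) and without T + WBV replicates 3 or 4 in SOL (1 each), and against C they were lowest at 7 in EDL without T + WBV replicate 4 and at 2 in SOL without T + WBV replicates 3, 4 or 5 or C replicates 1 or 4. Ctsz, the gene past the threshold in HRT, stood at 8.34, 8.21 and 8.33 in T + WBV hearts, all above the C + WBV hearts at 7.84, 7.93 and 7.84, and rose by 0.42 ± 0.07 (adjusted p = 0.00403). That call was lost without any 1 of these 6 hearts except T + WBV replicate 2 (adjusted p up to 0.0317).

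Ctsk fell in EDL in T + WBV against C + WBV. It stood at 5.06, 5.14, 4.19, 5.15 and 4.91 in T + WBV mice, all below the C + WBV mice, whose lowest, median and highest values were 5.22, 5.60 and 5.93. It fell by 0.68 (SE 0.17) on the log2 scale (adjusted p = 0.00637), and the call was lost without T + WBV replicates 3 or 5 or C + WBV replicates 1, 2, 3 or 6 (adjusted p up to 0.0282). Fibroblast markers averaged 5.93 to 7.63 in T + WBV mice and 7.63 to 8.13 in C + WBV mice in EDL, and their part in this difference was not tested.

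Body mass at day 19 was set against each gene within the 11 tumour-bearing mice, with T + WBV and T as a term in limma. In EDL 2 of the 32 genes passed (1.17% of all genes), and in SOL 1 (0.335%). For each 10 percentage points of body mass more, Ctsl in EDL was lower by 0.84, a slope of -0.84 ± 0.16 (adjusted p = 0.00927). The slope of Map1lc3b in EDL was -0.48 ± 0.09 (adjusted p = 0.00927) and that of Sqstm1 in SOL -0.39 ± 0.06 (adjusted p = 0.00667). These slopes rest on few mice. Without T + WBV replicate 2 (100.9%) and T replicate 3 (91.0%), the mice farthest from the median of 82.2%, 0 genes passed in EDL and 0 in SOL, and leaving out 1 mouse ended the Ctsl and Sqstm1 calls in 7 of 11 fits each and the Map1lc3b call in 8 of 11. Without either of these mice alone all 3 calls were lost.

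**Figure D4:**
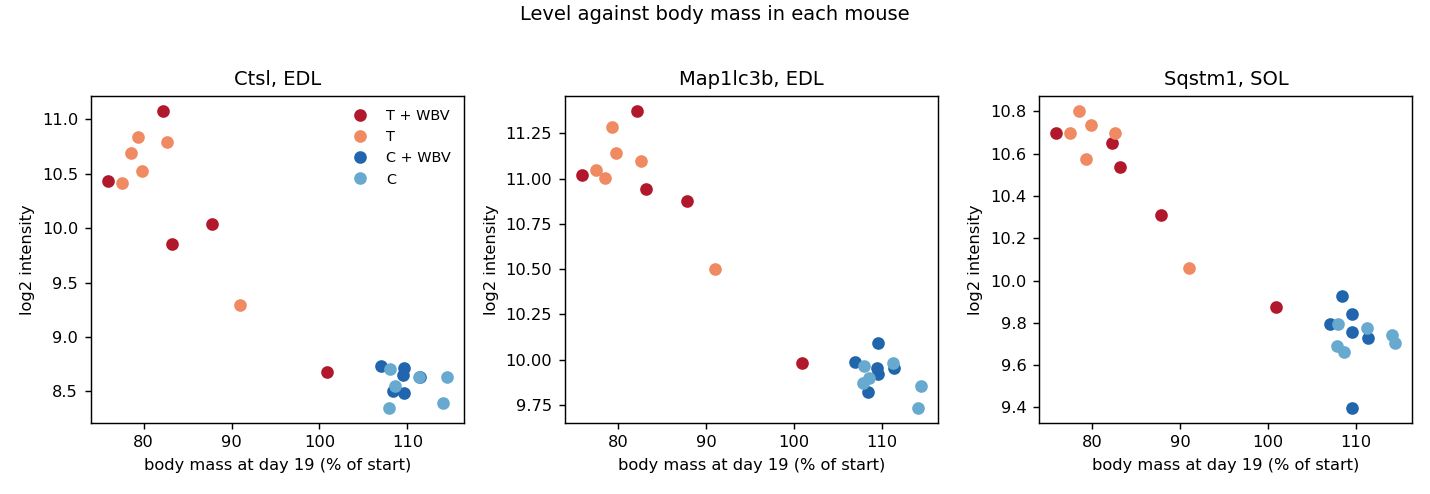
Log2 intensity (vertical axis) against body mass at day 19 as a percentage of the starting mass (horizontal axis) for Ctsl and Map1lc3b in EDL and Sqstm1 in SOL, 1 point per mouse coloured by group. The T mouse at 91.0% lies between the other tumour-bearing mice and the mice without tumour in each panel, and the T + WBV mouse at 100.9% lies within the range of the mice without tumour.

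Levels of the 32 genes were also compared between the tissues of C mice. Here 6 genes were higher and 5 lower in SOL than in EDL (13.9% of all genes passed), 7 higher and 4 lower in HRT than in EDL (31.9%), and 6 higher and 4 lower in HRT than in SOL (25.0%), in the fit over all 58 arrays. The members called made up 34.4% of the 32 in SOL and in HRT relative to EDL and 31.2% in HRT relative to SOL, so with HRT their share was near that of all genes. The count of 10 in HRT relative to SOL was 6 without C heart replicate 3. That of all genes ran from 3699 to 4545 over the fits that left out 1 array. Ctss was ordered HRT, SOL, EDL, with differences of 1.85 in HRT relative to EDL (adjusted p = 6.27e-16), 1.14 in HRT relative to SOL (adjusted p = 4.61e-09) and 0.70 in SOL relative to EDL (adjusted p = 4.18e-06). Single C hearts stood at 7.45, 6.78 and 7.53, above the SOL values of 5.91 to 6.35, which in turn lay above the EDL values of 5.11 to 5.54. The mean of the macrophage markers in C was 6.56 to 7.19 in HRT, 5.57 to 6.02 in SOL and 5.01 to 5.44 in EDL, and its part in this order was not tested.

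Atg9a, the transmembrane protein that brings lipid to the early autophagosome, ran the other way, lower by 0.86 in HRT (adjusted p = 1.05e-13) and by 0.70 in SOL (adjusted p = 3.11e-13) than in EDL. C hearts stood at 7.81, 7.73 and 7.88, SOL ran from 7.72 to 8.14 and EDL from 8.64 to 8.73, so EDL stood clear of both and HRT overlapped SOL. Tfeb was lower by 1.06 in HRT than in EDL (adjusted p = 1.72e-14) and by 0.83 than in SOL (adjusted p = 9.37e-11), with C hearts at 7.09, 7.12 and 7.22, SOL at 7.72 to 8.11 and EDL at 8.12 to 8.29. Bnip3 was highest in SOL, by 0.84 over EDL (adjusted p = 7.66e-06), and HRT lay 1.10 below SOL (adjusted p = 1.27e-06). Lamp2 was higher in SOL than in EDL by 0.34 (adjusted p = 0.000197) and higher in HRT than in EDL by 0.59 (adjusted p = 1.85e-07). Ctsk was higher in SOL than in EDL by 0.85 (adjusted p = 5.65e-05) and lower in HRT than in SOL by 0.73 (adjusted p = 0.00329), the second call lost without C heart replicates 1 or 3 (adjusted p up to 0.0655).

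**Figure D5:**
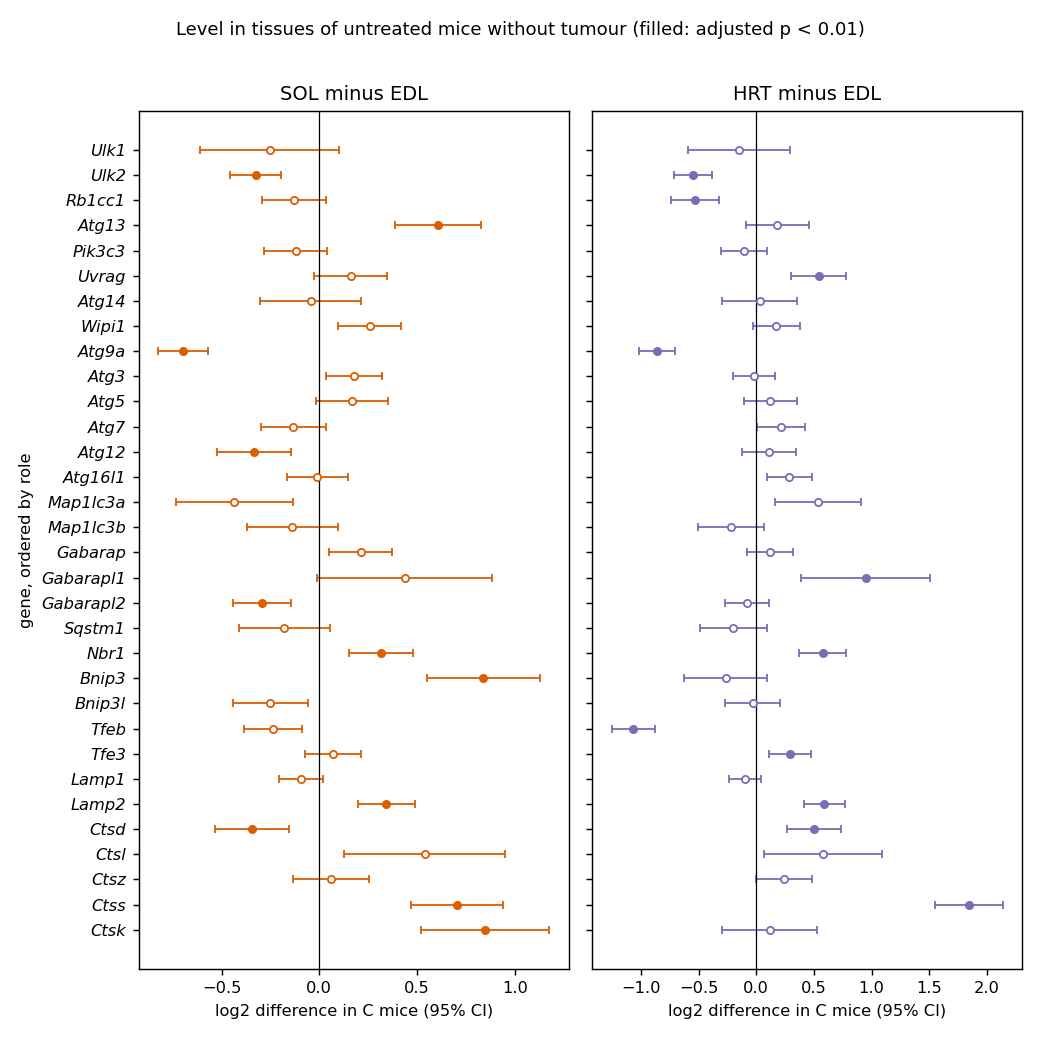
Log2 difference in level in C mice (horizontal axis) of SOL minus EDL (left) and HRT minus EDL (right) with 95% confidence intervals for the 32 genes, filled where the adjusted p was under 0.01. In HRT Ctss at 1.85 is the highest and Tfeb at -1.06 the lowest, and in SOL Ctsk at 0.85 is the highest and Atg9a at -0.70 the lowest.

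Further genes of the pathway were counted in the same T against C fits. Of 110 others measured, 32 rose and 22 fell in EDL, 18 rose and 14 fell in SOL, and 3 rose and 1 fell in HRT. Over all genes, 10.7% rose and 11.6% fell in EDL, while 5.06% rose and 8.66% fell in SOL. For HRT these shares were 2.70% and 3.04%. The 110 genes had a median difference of 0.03, -0.01 and 0.06. Of 5 other conjugation genes, among them the Atg4 proteases that process LC3, 0 rose and 3 fell in EDL and in SOL. Of 14 genes of the proton pump that acidifies the lysosome, 3 rose and 1 fell in EDL and 2 rose and 0 fell in SOL, and of 26 other lysosomal hydrolases 7 rose and 5 fell in EDL and 4 rose and 4 fell in SOL. Of 14 regulators, 7 rose and 3 fell in EDL and 6 rose and 3 fell in SOL.

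Ddit4, an inhibitor of mTORC1 signalling, had the largest rise among these 110 genes in each tissue, 3.42 ± 0.40 in EDL, 3.03 ± 0.39 in SOL and 2.30 ± 0.47 in HRT. Foxo1, a FoxO transcription factor, rose by 2.15 in EDL and 1.13 in SOL, and Foxo3 by 1.04 in SOL. The other large rises were those of Npc1 (2.02), a cholesterol transporter of the lysosome, and Retreg1 (1.65), a receptor for endoplasmic reticulum, in EDL, Atp6v1h (1.75), a pump subunit, in SOL, and Trp53inp1 (1.45) and Rab7 (0.28), a GTPase of lysosome fusion, in HRT. Arsb, a lysosomal sulfatase, fell in all 3 tissues, by 0.95 in EDL, 1.17 in SOL and 0.96 in HRT. Trp53inp2, which binds LC3 and GABARAP proteins, fell by 1.11 in EDL and 0.88 in SOL. Deptor, an mTOR inhibitor, and Rragd, a lysosomal GTPase, fell by 0.87 and 0.77 in EDL, and Manba and Ctsc, a mannosidase and a cathepsin, fell by 0.98 and 0.90 in SOL.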

How the data were processed

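RNA of EDL, SOL and HRT was hybridised to Affymetrix Mouse Gene 1.1 ST arrays, and the deposited values are log2 intensities that the authors normalised with RMA (no version in the sources used here). The study's methods describe a custom gene definition, whereas the deposited rows follow the array's own probe sets. Of 35556 probe sets, 21218 had 1 symbol, 1881 several and 12457 none, which gave 18820 genes after averaging per symbol. Groups came from the labels. limma 3.58.1 (R 4.3.3) was fitted per tissue over the 4 groups with an intensity trend in the prior variance, and p-values were adjusted by Benjamini-Hochberg over all genes (threshold 0.01). Tissues were compared in 1 fit over 58 arrays with the mouse as a random block (statmod 1.5.0, correlation 0.14). Slopes on body mass were fitted in the 11 tumour-bearing mice with a group term. The members and the other gene lists were chosen with earlier results of these data known. Values by array are given for at most 2 members per role with the largest change past the threshold, for members whose direction differs between tissues, and for those named in the text as chosen later. Of the other pathway genes, the 4 largest rises and falls per tissue are named. Scripts were tested on simulated data. The replicates are separate mice, the number of arrays (3 hearts per group) limits precision, and the alternatives tried were other variance priors, samples, normalisation, dim-gene filter, probe set summary, blocks, threshold and leaving out each array.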

Additional observations from a re-analysis of the deposited data

Results flagged for a closer look

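Of 256 groups of 5 or 6 arrays tested over the 32 genes, 24 held a value far from the others of its group. Chance gives about 1 in 20 for independent groups. The 32 genes were read on the same arrays, so the groups are not independent and the count cannot show an excess. In EDL, T replicate 3 was low for Bnip3 (10.04, nearest other array 10.92), Ctsl (9.29, nearest 10.42) and Map1lc3b (10.50, nearest 11.00), and in SOL the same mouse was low for Sqstm1 (10.06, nearest 10.57). This mouse had the highest body mass of the T group, 91.0% of its start. In EDL, T replicate 2 was low for Atg16l1 (6.15, nearest 6.46) and high for Gabarapl2 (9.25, nearest 8.89). In SOL, T replicate 1 was high for Atg14 (6.48, nearest 6.00) and low for Atg9a (7.95, nearest 8.10), and T replicate 6 was low for Ctsk (4.79, nearest 5.21).

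T + WBV replicate 2 was low in EDL for Atg7 (5.64, nearest 6.11) and Ctsz (7.75, nearest 8.03), and in SOL it was low for Rb1cc1 (6.16, nearest 6.55) and high for Ulk2 (8.59, nearest 8.18). T + WBV replicate 3 was low for Ctsk in EDL (4.19, nearest 4.91), and T + WBV replicate 4 was high for Uvrag in EDL (7.58, nearest 7.20) and for Bnip3l in SOL (10.04, nearest 9.74).

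In SOL, C + WBV replicate 2 was high for Lamp2 (10.11, nearest 9.74) and low for Sqstm1 (9.40, nearest 9.73), and C + WBV replicate 4 was low for Ctss (5.59, nearest 6.04). C replicate 2 was there high for Lamp2 (9.93, nearest 9.73) and low for Ctsd (10.14, nearest 10.48) and Ctsz (7.42, nearest 7.76). In EDL, C + WBV replicate 3 was low for Wipi1 (8.19, nearest 8.34) and C replicate 6 high for Gabarapl2 (8.90, nearest 8.77).

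The tumour difference varied between tissues for Bnip3l, by -0.68 in SOL relative to EDL and -0.90 in HRT relative to EDL, and for Wipi1, by -0.55 in HRT relative to EDL.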

How the results depend on the processing

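Of 106 gene results past the threshold, 65 passed in every fit that left out 1 array. Over 945 gene results in the other settings, 887 stayed past the threshold, 58 did not and 0 reversed. These settings include the looser threshold of 0.05, at which no such result could be lost. Taking 1 probe set per gene left the values of members with a single probe set unchanged. The tally therefore overstates how well the results held. Counts of members past the threshold moved as follows, and where no construction shows it, the cause was not tested. They are given without the share of all genes in the same setting, so they do not show whether a move was particular to the members. At an adjusted p under 0.05, T + WBV against C had 17 in EDL, 10 in SOL and 7 in HRT, T + WBV against C + WBV had 10 in SOL and 7 in HRT, and T against C had 11 in HRT. There the tumour difference between tissues had 3 (SOL and EDL), 5 (HRT and EDL) and 4 (HRT and SOL), and the slope in EDL 6. With all arrays in 1 fit, T + WBV against C had 6 in SOL and 2 in HRT, T against C 2 in HRT and T + WBV against C + WBV 3 in HRT. With only the groups compared, T + WBV against C had 6 in SOL, and T + WBV against C + WBV 0 in SOL and 0 in HRT. With only genes above the median level, T + WBV against C + WBV had 8 in SOL and 2 in HRT, T + WBV against C 1 in HRT, and the tumour difference 2 (SOL and EDL) and 1 (HRT and SOL). With 1 prior variance, T against C had 2 in HRT, T + WBV against C + WBV 0 in HRT, the tumour difference 1 (HRT and EDL), and the slopes 0 in EDL and 0 in SOL. A second quantile normalisation gave 1 for T + WBV against C in HRT and 1 for the tumour difference (HRT and EDL), leaving out the mouse block also gave 1 (HRT and EDL), and differences within the mouse gave 3 (SOL and EDL). The EDL slope had 5 without the group term, and the slopes had 0 in EDL and 0 in SOL when T + WBV replicate 2 and T replicate 3 were left out.

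Leaving out 1 array at a time gave 16 to 19 (EDL), 10 to 15 (SOL) and 1 to 3 (HRT) for T against C, 7 to 15, 2 to 8 and 0 to 9 for T + WBV against C, and 8 to 14, 1 to 10 and 0 to 10 for T + WBV against C + WBV. Over the same fits the counts of all genes also moved. They ran from 3614 to 4813, 1953 to 3065 and 368 to 694 for T against C. For T + WBV against C they ran from 1026 to 3191, 330 to 1643 and 34 to 1661. For T + WBV against C + WBV they ran from 1169 to 3318, 200 to 1454 and 53 to 1625. It gave 1 to 4 (SOL and EDL), 1 to 3 (HRT and EDL) and 0 to 0 (HRT and SOL) for the tumour difference, 8 to 11, 9 to 11 and 6 to 11 for the levels in C, and 0 to 2 (EDL) and 0 to 1 (SOL) for the slope. Replicate numbers do not pair T with C mice (correlations of same-numbered deviations from -0.08 to 0.14), and with the replicate number as a block T + WBV against C had 5 in SOL. The covariate for arrays with a suffix in their description could not be fitted for HRT.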
